A study of Homo sapiens with 24 samples.

Results

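The comparison described here sets LNCaP cells transfected with an siRNA against the long noncoding RNA TAPIR-1 (si-A1) against cells that received a scrambled control siRNA (si-SCRL), 24 h after transfection. Its members are the 4 arrays whose titles name si-A1 and the 4 that name the scramble at that time point, 8 of the 24 samples in the series. LNCaP is an established, androgen-sensitive line from a lymph node metastasis of prostate cancer, and all groups were grown in RPMI-1640 medium with fetal bovine serum and transfected by electroporation, so the control cells went through the same procedure. The remaining groups of the study were si-A2, an siRNA against the neighbouring transcript TAPIR-2, at 24 h, and all 3 siRNAs at 48 h, with 4 biological replicates each. One siRNA per transcript was put on these arrays, so an effect of si-A1 that came from TAPIR-1 and one that came from the duplex itself cannot be told apart by si-A1 and si-SCRL alone. The submitters placed TAPIR-1 on chromosome 2 (GRCh37.p13, chr2:1550437-1623885).

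Small interfering RNAs guide the Argonaute protein AGO2 to complementary RNA, which is then cleaved. LNCaP cells resemble the luminal epithelium of the prostate: they respond to androgen, secrete kallikreins, and rely on active lipid synthesis and membrane traffic. Cells that leave the cell cycle shut down genes of DNA replication and mitosis, many of which carry E2F, CCAAT or CHR elements in their promoters and are bound by E2F factors or the DREAM complex. The account below gives these genes briefly and then turns to genes with other functions.

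RNA from each culture was labelled with Cy3 and hybridised to its own array, and a level is the log2 of the processed spot intensity after quantile normalization between the 12 arrays of 24 h. A difference of 1 on this scale is a change by a factor of 2 in normalized intensity. The median processed intensity of the 8 arrays lay between 24.4, on si-SCRL replicate 3, and 57.2, on si-A1 replicate 3, and between 58.5% and 71.7% of the spots were well above background. Arrays of the si-SCRL group correlated with each other at r = 0.954 to 0.980 over genes, and those of the si-A1 group at 0.974 to 0.988. All 10 markers of luminal prostate cells, among them KLK2, KLK3 and FOLH1, were well above background on all 8 arrays. Their summed intensity was 38188 to 40833 with si-SCRL and 34008 to 41457 with si-A1. Of the markers of other cell types, KRT5, COL17A1, COL1A2, LUM, PDGFRB, TEK and LYZ did not pass the background threshold, and CNN1 and EMCN stood well above background on none of the 8 arrays. Other markers of these lists did give signal. KRT15 and DST of the basal list, VIM and DES, PECAM1, VWF and CDH5, and 8 of 10 leukocyte markers were well above background on all 8 arrays. Summed intensities with si-SCRL and si-A1 were 3188 to 8476 and 3694 to 7474 for the basal list, 779 to 2325 and 1842 to 2203 for fibroblasts and smooth muscle, 303 to 647 and 598 to 740 for endothelium, and 1149 to 1949 and 1709 to 2165 for leukocytes. No marker of any list was called. The part of these signals in the results was not tested. In a bulk culture, fewer cells of a kind and less RNA per cell cannot be told apart.

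The targeted transcript could not be checked, because no probe analysed here carried an accession of TAPIR-1. A probe for TAPIR-2 read 5.08, 4.98, 5.28 and 4.81 with si-SCRL and 4.95, 4.75, 4.68 and 4.19 with si-A1, on the log2 scale. The groups overlapped. The difference was -0.40 (exact two-sided permutation test, p = 0.0571, where 4 against 4 arrays cannot give less than 0.0286).

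Few genes rose and many fell. Among 36639 genes above the background threshold, 378 were called (1.03%) at a limma adjusted p below 0.01 and an absolute log2 change of at least 0.5. Of these, 351 were lower after si-A1 (0.958% of the genes tested) and 27 were higher (0.0737%). Among the 19497 genes with a RefSeq symbol, 341 were called (1.75%), 321 lower (1.65%) and 20 higher (0.103%). With the study's own filter on variable genes, which kept 15186 genes, 216 were called (1.42%), 209 lower (1.38%) and 7 higher (0.0461%). The called decreases had a median log2 change of -1.43 and the increases one of 0.97, whereas the median over all detected genes was 0.05. At an unadjusted p below 0.05 the directions were less unequal, with 2458 genes lower and 2093 higher. For all 378 called genes the 4 si-A1 arrays lay on one side of the 4 si-SCRL arrays, which was so for 8.87% of all detected genes, with si-A1 above in 3.77% and below in 5.10%. Each slide held 2 replicates of each group, and every called gene changed by at least 0.5 in its direction within each of the 2 slides. The genes were called on these same arrays, so the slides are not an independent check. The calls draw on the spread of all 12 arrays: with the 8 arrays alone 141 genes were called, 140 of them among the 378, and leaving out 1 array at a time gave 199 to 329 calls, with 329 when si-SCRL replicate 3, the dimmest array, was left out and 199 without si-A1 replicate 2.

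**Figure D1:**
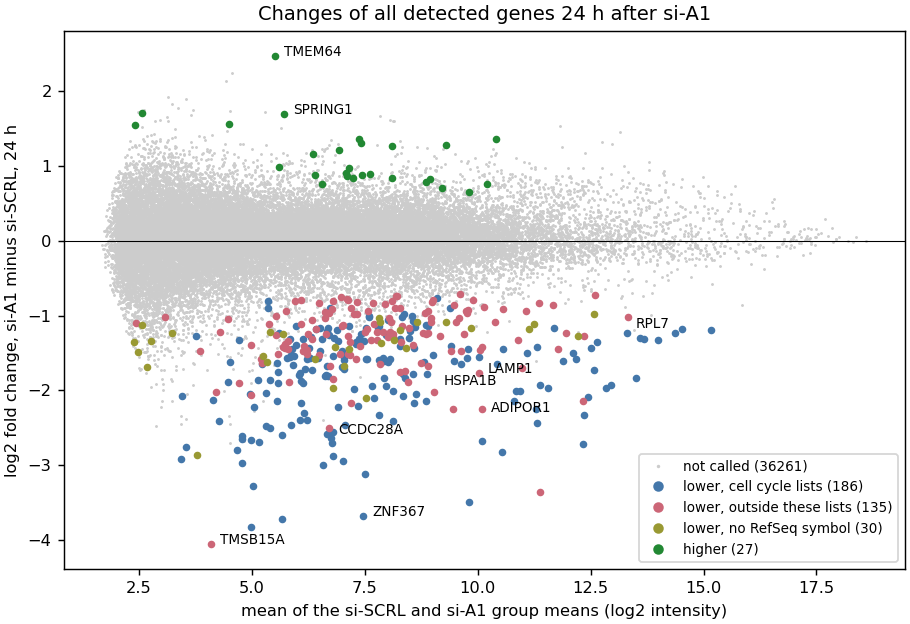
The log2 fold change between si-A1 and si-SCRL at 24 h (vertical axis) of each detected gene against the mean of the si-SCRL and si-A1 means in log2 intensity (horizontal axis); coloured points are the called genes and grey points the others. Of the labelled genes that were well above background on all 8 arrays, ZNF367 lies lowest at -3.67; TMSB15A, dim on the si-A1 arrays, is known only to a bound.

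Genes of the cell cycle made up more than any other group of the decreases. Of 407 detected members of the lists for DNA replication, mitosis, replication-dependent histones, and homologous recombination with the Fanconi anemia pathway, 186 (45.7%) were lower and 0 were higher, against 1.65% lower among all 19497 detected genes with a RefSeq symbol. Lower members came to 61 of 122 for DNA replication, 72 of 171 for mitosis, 40 of 60 for histones and 13 of 54 for recombination. E2F5 and NEK7, called higher and given below, were not in these lists, although the paper counts E2F5 with the cell cycle genes. Among the genes with the largest fitted decreases were DTL, which directs the ubiquitin ligase that destroys CDT1, CLSPN, which activates CHEK1, ZNF367, H1-5, a linker histone, ANLN, a scaffold of the cleavage furrow, RRM2, a subunit of ribonucleotide reductase, RAD51AP1 and FAM111B, and also the histone gene H3C15 and TMSB15A, which are described below. ZNF367, which encodes a zinc finger protein, read 9.40, 9.50, 9.41 and 8.90 with si-SCRL and 5.94, 5.80, 5.51 and 5.25 with si-A1. No array of one group came within 2 log2 units of the other group, and the change was -3.67 (SE 0.19, adjusted p = 1.27e-05). RRM2 read 8.85, 8.65, 9.86 and 8.91 against 6.11, 5.84, 6.18 and 5.64, a change of -3.12 (SE 0.24, adjusted p = 7.08e-05). On none of the si-A1 arrays did FAM111B stand well above background, and it was at least 5.99-fold lower.

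Outside these lists 135 genes with a symbol were lower, 0.707% of 19090, with a median change of -1.23. Of these, 53 belonged to 1 or more of 47 lists of other functions, and 82 to no list. A further 30 lower probes had no RefSeq symbol. TMSB15A, a beta thymosin that binds actin monomers, read 5.76, 5.54, 6.88 and 6.31 with si-SCRL and 2.28, 1.68, 2.69 and 1.62 with si-A1. Since no si-A1 array was well above background, its change is a bound: TMSB15A was at least 5.76-fold lower (adjusted p = 4.89e-05). The gene lies on chromosome X (GRCh38.p14, chrX:102513682-102516739) beside the near-identical TMSB15B, and the signals of the pair may not be separated by a probe. The other 3 detected members of the thymosin list were not called.

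H3C15 and H4C15, histone genes of the chromosome 1 cluster that the list of histones did not hold, changed by -3.36 and -2.14. H3C15 fell from 13.38, 13.12, 13.52 and 12.21 to 9.96, 9.85, 9.48 and 9.52, a 10.2-fold change in normalized intensity. Histone genes have near-identical copies, so the copy is uncertain. CCDC28A, which encodes a coiled-coil protein, read 7.98, 7.79, 8.18 and 7.90 with si-SCRL and 5.47, 5.29, 5.70 and 5.36 with si-A1. The arrays of each group lay within 0.5 of each other, and the change of -2.51 was 5.68-fold (SE 0.14, adjusted p = 1.58e-05). TCF19, which encodes a PHD finger protein, was at least 3.07-fold lower, with no si-A1 array well above background, and lost its call in 13 of 23 other settings.

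RMND5A, a RING subunit of the CTLH ubiquitin ligase, stood at 10.81, 10.02, 10.62 and 10.89 with si-SCRL and at 8.08, 8.30, 8.42 and 8.57 with si-A1. Its change was -2.25 (SE 0.22, adjusted p = 0.000355), and 3 probes of the gene gave changes between -2.25 and -1.13. ADIPOR1, a receptor of the adipokine adiponectin, was bright. It read 11.07, 11.28, 11.65 and 10.85 on the si-SCRL arrays against a range of 8.88 to 9.07 over the 4 si-A1 arrays. It was 4.74-fold lower (log2 change -2.25, SE 0.17, adjusted p = 7.08e-05), while a further, dimmer probe of ADIPOR1 gave -1.44. GCNT2, the branching enzyme of the I blood group antigen, fell from between 5.74 and 6.25 on the si-SCRL arrays to 4.40, 3.82, 4.22 and 3.43 on the si-A1 arrays, and was well above background on only 2 of the 4 si-A1 arrays. PURB, a protein that binds purine-rich single-stranded DNA, read 9.30, 9.34, 9.48 and 9.45 against 7.66, 7.43, 7.57 and 7.37 (log2 change -1.89, SE 0.14, adjusted p = 6.18e-05). DESI2, a deSUMOylating isopeptidase, changed by -1.84 (SE 0.17, adjusted p = 0.000255).

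**Figure D2:**
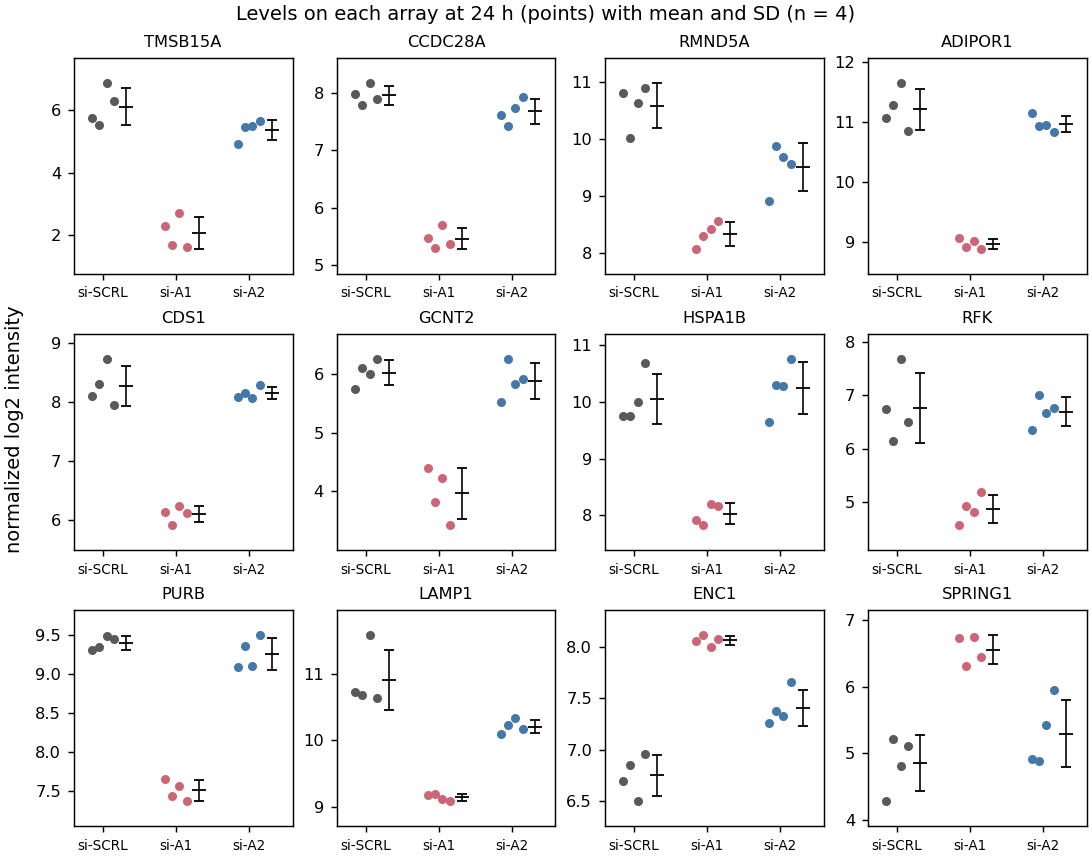
Normalized log2 intensity (vertical axes, separate scales) of 12 called genes on each array of 24 h; points are arrays in the order of their replicate numbers, and the bars are the mean and SD of 4 arrays. In all 12 panels the si-A1 arrays lie apart from the si-SCRL arrays, below them for 10 genes and above them for ENC1 and SPRING1, while the si-A2 arrays of CCDC28A, ADIPOR1, CDS1 and PURB lie near si-SCRL.

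Of 39 enzymes of phospholipid and triglyceride synthesis 5 were lower (12.8%) and 0 higher, beside 1.65% lower among all named genes. Outside the cell cycle lists that share was 0.707%, and over the members of all function lists outside them it was 2.54%. The function lists were drawn up with earlier results of these arrays known, so their counts are descriptions. The median of the list was -0.06, so most of its members did not follow these 5. CDS1 and CDS2 make CDP-diacylglycerol, the precursor of phosphatidylinositol and cardiolipin. CDS1 read 8.10, 8.31, 8.73 and 7.95 with si-SCRL and 6.14, 5.92, 6.24 and 6.12 with si-A1, a 4.49-fold decrease (log2 change -2.17, SE 0.17, adjusted p = 7.19e-05). CDS2 changed by -1.12 (SE 0.14, adjusted p = 0.00167). LCLAT1, an acyltransferase that acts on lysocardiolipin, read 6.74, 7.09, 7.22 and 6.91 against 5.73, 5.66, 5.70 and 5.65, a change of -1.31, while a further probe of LCLAT1 gave -2.73. MBOAT2, an acyltransferase of lysophospholipids, changed by -1.17 and SERINC5, a serine incorporator of membranes, by -1.09. In the list of fatty acid oxidation, ADIPOR1 and ECI2, an enoyl-CoA isomerase (-1.13), were lower, 2 of 39. ECI2 lost its call in 7 of 23 other settings. In the list of cholesterol synthesis 0 of 41 were lower and 1 was higher, the SREBP pathway regulator SPRING1.

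The lists of membrane traffic and the lysosome had median changes of -0.01 and 0. Their counts can also be set beside the 0.707% lower among named genes outside the cell cycle lists. Over the members of all function lists outside them this share was 2.54%. Of 90 members of the trafficking list 4 were lower (4.44%, beside 1.65% of all named genes): RAB6A, a GTPase of the Golgi (-1.22), TBC1D13, a GTPase activator for Rab proteins (-1.45), AP1G1, a subunit of the AP-1 clathrin adaptor (-0.94), and SNX10, a sorting nexin (-1.43). One, the Golgi membrane protein TMEM87B, was higher (0.78). RAB6A and TBC1D13 each lost their call in 12 of 23 other settings, TMEM87B in 15 and AP1G1 in 8. LAMP1, a main glycoprotein of the lysosomal membrane, read 10.73, 10.68, 11.59 and 10.65 with si-SCRL and 9.18, 9.20, 9.11 and 9.09 with si-A1. The si-A1 arrays lay close together, si-SCRL replicate 3 stood above the other controls, and the change was -1.77 (SE 0.19, adjusted p = 0.000698). LIPA, the lysosomal acid lipase, changed by -1.39, so that 2 of 63 lysosomal genes were lower (3.17%). RUBCN, an inhibitor of autophagosome maturation, was lower by -0.90, 1 of 47 autophagy genes, and lost its call in 12 settings.

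Proteins of the cell surface and their modification showed a small number of decreases as well. CD9, a tetraspanin, read 12.40, 12.79, 12.80 and 12.26 against 11.35, 11.31, 11.47 and 11.20 (log2 change -1.23, adjusted p = 0.00185). With TSPAN17 (-0.90) and MAL2 (-1.23), a protein of apical transport, 3 of 65 members of the adhesion list were lower (4.62%). Among named genes outside the cell cycle lists 0.707% were lower, and among members of all function lists outside them 2.54%. MAL2 lost its call in 12 of 23 other settings. ZDHHC12 and ZDHHC4, which attach palmitate to proteins, were lower by -1.70 and -0.94, 2 of the 22 enzymes of their family (9.09%). The call of ZDHHC4 was lost in 8 of 23 other settings. MGAT5, which adds a branch to N-glycans, changed by -1.51 and PIGN, which modifies the first mannose of GPI anchors, by -1.52, each the only called member of its list, of 60 and 26 genes. The amino acid transporter SLC43A2 (-1.90) and the phosphate transporter SLC20A1 (-1.35) were lower among 33 transporters, but lost their calls in 10 and 12 of 23 other settings. SLC43A2 was well above background on only 2 of the 4 si-A1 arrays, so the size of its change is uncertain.

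PLRG1, a subunit of the PRP19 complex of the spliceosome, had the largest decrease among the called splicing factors. It read 9.46, 9.85, 9.90 and 9.76 with si-SCRL and 8.19, 8.06, 8.19 and 7.85 with si-A1, a 3.18-fold decrease (log2 change -1.67, SE 0.18, adjusted p = 0.000582). DHX15, a helicase that takes spent spliceosomes apart (-1.08), and RBM10, a regulator of alternative splicing (-0.86), were also lower, which made 3 of 83 splicing factors (3.61%). The share lower was 0.707% over the named genes outside the cell cycle lists, and 2.54% over members of all function lists outside them. Of 57 genes of mRNA decay 2 were lower, the deadenylase PARN (-1.36) and the decapping enhancer EDC3 (-0.78). In the list of ribosome biogenesis REXO5, an RNA exonuclease, was lower (-1.05) and NOL12, a nucleolar protein, higher (1.28), of 67. Of 79 ribosomal proteins of the cytosol, RPL7 alone was called (-1.02). RPL7 has many processed pseudogenes that a probe can also detect, and it lost its call in 14 of 23 other settings, as did EDC3. RBM10 and NOL12 lost theirs in 12, NUP50 in 8 and REXO5 in 6. NUP50 was the only called member of 52 genes of the nuclear pore (-0.97), where the median was -0.24, and its probes ranged from -0.97 to -0.32.

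Proteins of stress and turnover were called in small numbers. Of the named genes outside the cell cycle lists 0.707% were lower, and of all named genes 0.103% were higher. Of the members of all function lists outside the cell cycle lists 2.54% were lower. HSPA1B, an inducible member of the Hsp70 family, read 9.75, 9.76, 9.99 and 10.69 with si-SCRL and 7.92, 7.83, 8.20 and 8.16 with si-A1, a 4.07-fold decrease (log2 change -2.02, SE 0.20, adjusted p = 0.000335). It was the only called gene among 44 chaperones, and its sequence is nearly that of HSPA1A, so the copy is uncertain. Besides RMND5A, the RING ligase RNF6 was lower (-1.08, adjusted p = 0.00178). In the list of the unfolded protein response the direction was mixed. TXNDC12, a thioredoxin of the endoplasmic reticulum, was lower (-1.75), whereas the chaperone HYOU1 (0.66) and the secreted factor MANF (0.70) were higher, of 44 genes. HYOU1 and MANF were called in 8 of 23 other settings each. RFK, which turns riboflavin into FMN, changed by -1.89, with si-SCRL arrays spread from 6.15 to 7.68, and lost its call in 9 settings.

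In energy and small-molecule metabolism, the decreases touched abundant transcripts. ATP5F1B, the beta subunit of ATP synthase, read 12.69, 13.21, 13.17 and 12.92 against 11.90, 11.72, 11.83 and 11.46, a 2.41-fold decrease (log2 change -1.27, SE 0.18, adjusted p = 0.00329). SLC25A4, which exchanges ADP and ATP across the inner mitochondrial membrane, changed by -0.93. The calls of ATP5F1B and SLC25A4 were lost in 8 and 9 of 23 other settings. ATP5F1B and SLC25A4 were 2 of 80 genes of oxidative phosphorylation (2.5%), a list with a median of 0.03. Among named genes outside the cell cycle lists 0.707% were lower, and among members of all function lists outside them 2.54%. SMS, which makes spermine, was unusually steady: its si-A1 arrays read 10.22, 10.22, 10.28 and 10.20, and its si-SCRL arrays 11.44, 11.58, 11.76 and 11.42. The change was -1.32 (SE 0.12, adjusted p = 0.000174), and SMS alone was called among 19 genes of polyamine metabolism. GMPR2, a GMP reductase (-1.39), and PAPSS1, which makes the sulfate donor PAPS (-1.47), were lower of 50 genes of nucleotide and one-carbon metabolism. None of 41 genes of glycolysis and glucose transport was called.

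Few signalling and regulatory genes of each list were called. Beside them, 0.707% of the named genes outside the cell cycle lists were lower, and 0.103% of all named genes were higher. Over the members of all function lists outside the cell cycle lists 2.54% were lower. CCND1, which encodes cyclin D1 and is a member of both the list of DNA replication and S phase and the Wnt list, read 9.08, 9.38, 9.25 and 9.50 against 7.67, 7.41, 7.57 and 7.23, a 3.57-fold decrease (log2 change -1.84, adjusted p = 0.000135). KREMEN1, a receptor for Dickkopf proteins, was lower by -1.52, but its 3 probes ranged from -1.53 to 0.17. IGFBP3, which binds insulin-like growth factors, changed by -1.58 (SE 0.15, adjusted p = 0.000246), the only called gene of 39 in that axis. PRKAR1A, a regulatory subunit of protein kinase A, was lower (-1.25) and PKIB, an inhibitor of that kinase, higher (1.22), with calls lost in 5 and 14 of 23 other settings. TMBIM6 and TMBIM1, which share a transmembrane BAX inhibitor motif, were lower by -1.44 and -1.04, 2 of 32 genes of the apoptosis list (6.25%). A further probe of TMBIM6 gave -2.82. PER3 of the circadian clock was lower by -1.46. RFX5, which switches on MHC class II genes, was lower by -1.47 (SE 0.12, adjusted p = 8.69e-05), the only called member among 53 interferon and RNA-sensing genes. Of 73 genes of the actin cytoskeleton and its regulators, ARPC1B, a subunit of the Arp2/3 complex (-1.22), and LIMD1 (-1.18) were lower, and ENC1 and MYO18A higher; LIMD1 and MYO18A lost their calls in 11 and 10 settings. ETV3L was called lower, but no array of either group had it well above background, so no size is given, and its call was lost in 15 of 21 other settings.

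The increases were few and mostly small. TMEM64, a transmembrane protein, read 4.10, 3.90, 4.31 and 4.82 with si-SCRL and 6.78, 6.81, 6.95 and 6.47 with si-A1, a change of 2.47 (SE 0.31, adjusted p = 0.00166). The probe was well above background on 3 of the 4 si-SCRL arrays, and a further probe of TMEM64 gave 0.43. SPRING1 read 4.29, 5.22, 4.81 and 5.11 against 6.74, 6.31, 6.75 and 6.44, a change of 1.70 (SE 0.24, adjusted p = 0.00393). NDN, which encodes necdin, an imprinted growth suppressor, rose from 9.74, 10.03, 9.21 and 9.93 to 11.08, 11.01, 11.17 and 11.08, a 2.57-fold change. ENC1, an actin-binding kelch protein, read 6.70, 6.86, 6.50 and 6.96 with si-SCRL against 8.06 ± 0.05 (SD, n = 4) with si-A1 (log2 change 1.31, SE 0.14, adjusted p = 0.00065). The ectoenzyme family member ENPP5 rose by 1.36, E2F5, an E2F factor that works with the pocket proteins, by 1.16, and the kinases WNK3 and NEK7 by 0.98 and 0.97. Among the named increases only those of ENC1 and TMEM64 were called under all 23 other settings.

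Of the p53 targets, 2 of 32 were higher (6.25%, beside 0.103% of all named genes) and 0 lower: FAS, a death receptor (0.88), and TP53INP1 (0.76), and the median of the list was 0.03. FAS read 6.09, 5.85, 5.76 and 6.15 with si-SCRL and 6.86, 6.78, 6.89 and 6.82 with si-A1, and its call was lost in 18 of 23 other settings. TP53INP1 lost its call in 15.

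No member was called among 42 androgen-regulated and luminal genes, whose median was -0.20 and of which 28 lay below 0. The largest changes there were those of FKBP5, a cochaperone of steroid receptors (-1.19, adjusted p = 0.0353), and ACSL3, a fatty acyl-CoA synthetase (-0.99, adjusted p = 0.0184). A further, much dimmer probe of FKBP5 gave -0.10. The machinery of RNA interference held no called gene of 18, with TSNAX at -0.74 and AGO2 at 0.55. The same was so of the NF-kB list (0 of 29), hypoxia (0 of 31), TGF-beta (0 of 41), Notch and Hedgehog (0 of 39), the proteasome (0 of 43), translation factors (0 of 50), chromatin regulators (0 of 74), the MYC network (0 of 12), neuroendocrine genes (0 of 13) and long noncoding RNAs (0 of 40). In repair by excision and end joining, 0 of 52 were called, and ALKBH3, which repairs alkylated bases, stood just outside the threshold (-1.01, adjusted p = 0.0108). A missed threshold does not show that a gene kept its level: the median residual SD over all genes was 0.329.

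**Figure D3:**
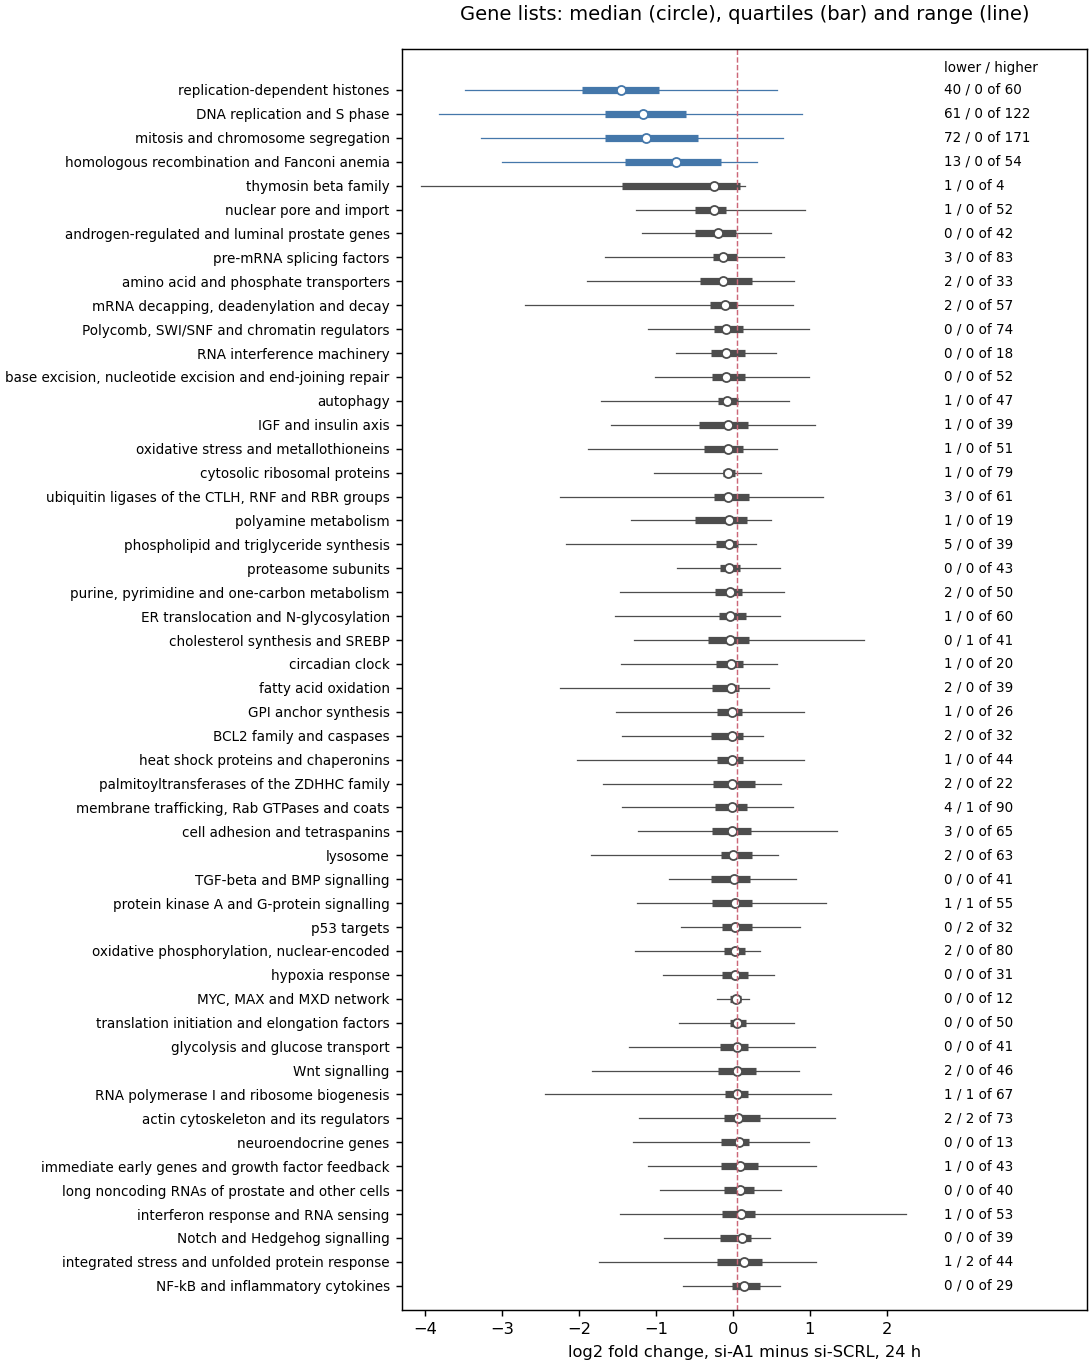
Log2 fold change between si-A1 and si-SCRL at 24 h (horizontal axis) over the detected members of 51 gene lists, with the number of members called lower, called higher and detected at the right; the dashed line is the median of all detected genes. The 4 cell cycle lists (blue) have medians from -1.46 to -0.74, whereas the medians of the other 47 lists (grey) lie between -0.25 and 0.15.

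Beside si-A2, cell cycle genes and the other genes that fell after si-A1 gave different counts. The contrast of si-A1 with si-A2 at 24 h was taken from the same fit. Beyond the normalization no control array enters the difference itself, but the control arrays do enter the spread behind its p-values. The contrast shares the si-A1 arrays with the calls above, which by itself moves genes chosen for low si-A1 values toward a negative difference. It called 113 genes (0.308%), 75 lower (0.205%) and 38 higher (0.104%) in si-A1. Of the 186 cell cycle genes lower after si-A1, 0 differed between the siRNAs at the calling threshold, and 7 had an adjusted p below 0.05. Their median difference was 0.10. Of the 135 lower genes outside these lists 54 differed, all 54 lower in si-A1, and 91 had an adjusted p below 0.05. The share of all detected genes with an adjusted p below 0.05 was not counted. The median difference over the 135 was -0.96. Of the 27 higher genes 2 differed. The number of calls in this contrast moved widely with the arrays used, from 27 to 257 when 1 array was left out and to 27 to 44 when that was a si-A1 or si-A2 array, and was 30 with the replicate number as a block. Without 1 si-A1 or si-A2 array, between 19 and 27 genes were called lower in si-A1, where all arrays gave 75. These numbers are below 54, so the count of 54 holds only with the full set of these arrays.

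CCDC28A read 7.62, 7.43, 7.73 and 7.93 with si-A2, close to the si-SCRL arrays, and si-A1 was 2.22 below si-A2 (adjusted p = 0.000197). ADIPOR1 read 11.16, 10.93, 10.94 and 10.84 with si-A2, a mean of 10.97 against 8.97 with si-A1 (adjusted p = 0.00064), and CDS1 read 8.09, 8.16, 8.07 and 8.30, a difference of -2.05 (adjusted p = 0.000575). For TMSB15A the si-A2 arrays stood at 4.92, 5.47, 5.49 and 5.66, each above every si-A1 array (adjusted p = 0.000597), where the low si-A1 signal leaves the size of the difference unknown. LIPA was at 6.32 to 6.75 with si-A2, above the controls, and differed by -2.28 (adjusted p = 0.000197). HSPA1B, PURB, GCNT2, PIGN, PLRG1, SMS, CD9, MBOAT2, ATP5F1B and TMBIM6 also differed, by -2.22 to -1.23. In contrast, ZNF367 read 5.89, 5.15, 5.59 and 5.34 with si-A2 and RRM2 6.27, 6.11, 6.05 and 6.33, within the range of si-A1 or near it, with differences of 0.13 and -0.25 (adjusted p = 0.893 and 0.824). RMND5A, with 8.92, 9.87, 9.69 and 9.56, lay between the other groups (difference -1.17, adjusted p = 0.0357). Of the increases, TMEM64 was 2.16 above si-A2 (adjusted p = 0.00924), whereas NDN, with 11.08, 11.06, 10.77 and 11.23, stood as high with si-A2 (difference 0.05, adjusted p = 0.958).

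**Figure D4:**
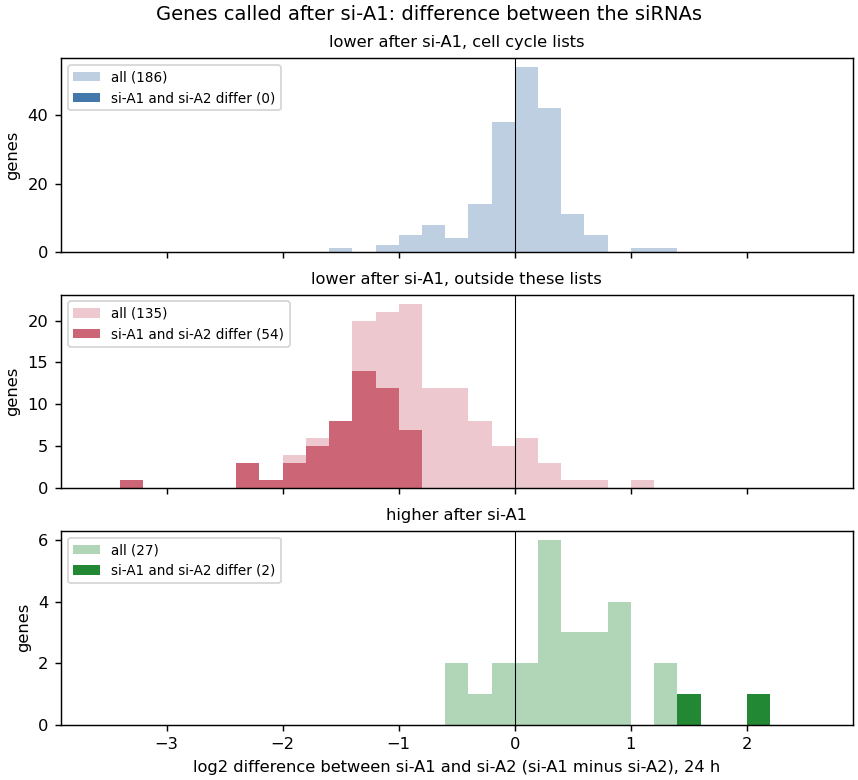
Histograms of the log2 difference between si-A1 and si-A2 at 24 h (horizontal axis) over genes called against si-SCRL, with the number of genes on the vertical axes; dark bars are genes whose difference was called. Cell cycle genes (0 of 186 called) centre near 0, and the other lower genes (54 of 135 called) lie mostly below 0.

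At 48 h, separate cultures were run on the following version of the array, so time and array version cannot be told apart. On the same probes, 1966 of 29154 genes were called between si-A1 and si-SCRL (6.74%), 1167 lower (4.00%) and 799 higher (2.74%). Of the 378 genes called at 24 h, 369 were measured at 48 h and 308 were called in the same direction. The cell cycle genes fell further: 178 of 185 were called lower, and their median change went from -1.64 to -2.53. Of the lower genes outside these lists, 106 of 133 were called lower, with a median of -1.23 at 24 h and -1.22 at 48 h. All 133 were below 0 at 48 h. Of 24 higher genes only 2 were called higher at 48 h, and the median went from 0.94 to 0.52. The change of an effect between the time points was not tested.

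Among single genes, TMSB15A, well above background on 1 of the 4 si-A1 arrays there, changed by -3.86 at 48 h (adjusted p = 0.000125), ADIPOR1 by -2.11 (adjusted p = 0.000355), CDS1 by -2.07 (adjusted p = 0.000664), HSPA1B by -2.46 (adjusted p = 0.000112) and ATP5F1B by -1.50 (adjusted p = 0.000361). CCDC28A was at -1.07 (adjusted p = 0.00204), where it had been at -2.51. IGFBP3 (-0.49, adjusted p = 0.498) and SERINC5 (-0.41, adjusted p = 0.0537) were not called at 48 h. FKBP5, not called at 24 h, was called lower at 48 h (-1.85, adjusted p = 0.000503). The median of the androgen-regulated and luminal list was -0.40 there, beside 0.04 over all genes. ENC1 was higher at both times (1.04 at 48 h, adjusted p = 0.00179). SPRING1 (0.58, adjusted p = 0.129), TMEM64 (0.65, adjusted p = 0.371) and NOL12 (-0.09, adjusted p = 0.839) were not called at 48 h, nor were the chaperones HYOU1 and MANF, at 0.23 and -0.06.

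**Figure D5:**
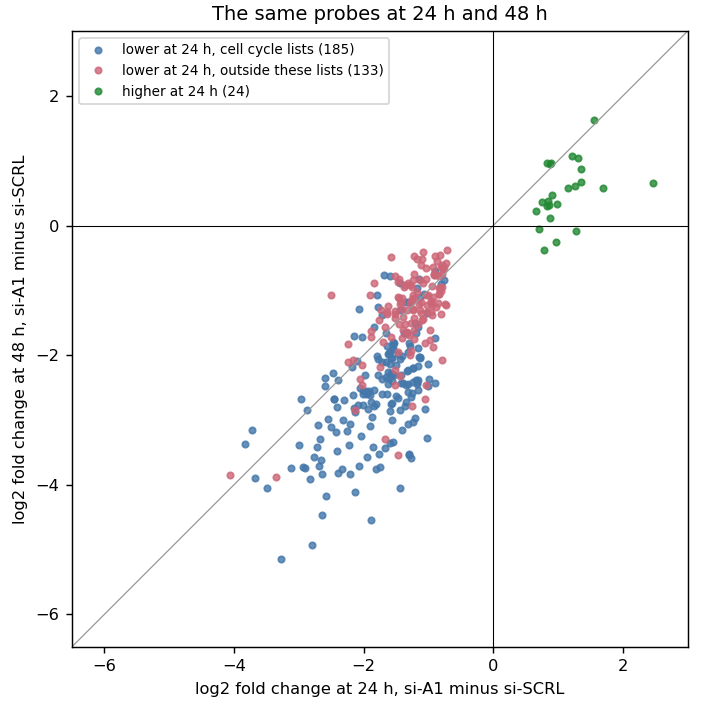
Log2 fold change between si-A1 and si-SCRL at 48 h (vertical axis) against that at 24 h (horizontal axis) on the same probes, for genes called at 24 h; the grey line marks equal change. Cell cycle genes lie mostly below the line (median -1.64 at 24 h and -2.53 at 48 h), the other lower genes lie around it, and the higher genes lie mostly between the line and 0.

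Promoters of the lower genes were read from RefSeq (GRCh38.p14) in windows of 300 bases around each start site, and searched on both strands for the letters CCAAT, for the CHR letters TTTGAA, and for the E2F letters TTTCCCGC, TTTGGCGC, TTTCGCGC or TTTGCCGC. A window was found for 155 of the 186 lower cell cycle genes, 114 of the 135 other lower genes and 15 of the 20 higher genes with a symbol. Of the cell cycle windows 63.9% held CCAAT, 37.4% the CHR letters and 27.1% the E2F letters. In the windows of the other lower genes these shares were 40.4%, 11.4% and 6.14%, and in those of the higher genes 33.3%, 6.67% and 6.67%. Over the 14869 detected named genes with a window they were 36.4%, 11.8% and 4.5%, and over all 27305 promoters of that length 35.7%, 15.4% and 3.33%. A match is a string of letters and does not show that a factor binds there.

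The promoters of 5 genes are printed to show this split, chosen after their values were seen: ZNF367 for the cell cycle genes, TMSB15A, CCDC28A and ADIPOR1 for large decreases outside them, and SPRING1 for an increase. Each run is the 200 bases before the start site, 5′ to 3′ on the strand of the gene, with the searched letters in capitals; ZNF367 is at chr9:96418371-96418570 on the minus strand, TMSB15A at chrX:102516740-102516939 (minus), CCDC28A at chr6:138773569-138773768 (plus), ADIPOR1 at chr1:202958397-202958596 (minus) and SPRING1 at chr12:116738070-116738269 (minus). The start site is that of the promoter table; the RefSeq span of ADIPOR1 reaches further, to 202958572, so most of its printed run lies inside that span.
ZNF367: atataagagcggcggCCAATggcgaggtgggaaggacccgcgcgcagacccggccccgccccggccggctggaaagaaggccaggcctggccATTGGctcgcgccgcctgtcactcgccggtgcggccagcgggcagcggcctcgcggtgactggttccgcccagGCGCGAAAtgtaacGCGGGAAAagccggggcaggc
TMSB15A: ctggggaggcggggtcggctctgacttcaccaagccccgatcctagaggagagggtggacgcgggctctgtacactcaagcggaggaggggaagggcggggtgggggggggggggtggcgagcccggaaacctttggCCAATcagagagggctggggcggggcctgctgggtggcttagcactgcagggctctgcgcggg
CCDC28A: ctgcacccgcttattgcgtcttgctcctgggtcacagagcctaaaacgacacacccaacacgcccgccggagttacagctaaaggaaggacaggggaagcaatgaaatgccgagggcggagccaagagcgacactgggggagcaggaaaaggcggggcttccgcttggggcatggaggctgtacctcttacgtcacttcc
ADIPOR1: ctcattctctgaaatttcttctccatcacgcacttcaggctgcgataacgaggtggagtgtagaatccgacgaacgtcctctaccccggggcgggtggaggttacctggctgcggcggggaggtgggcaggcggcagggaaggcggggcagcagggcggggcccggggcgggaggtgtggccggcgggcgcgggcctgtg
SPRING1: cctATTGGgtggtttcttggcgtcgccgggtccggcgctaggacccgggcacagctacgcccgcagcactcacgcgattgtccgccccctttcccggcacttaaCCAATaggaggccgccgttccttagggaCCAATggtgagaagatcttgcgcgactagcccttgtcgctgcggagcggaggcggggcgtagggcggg

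The ZNF367 stretch holds 2 CCAAT matches and 2 E2F matches, the nearer E2F letters beginning 21 bases before the start site. In the TMSB15A stretch there is 1 CCAAT match, beginning 63 bases before the start, and SPRING1 has 3. The stretches of CCDC28A and ADIPOR1 hold none of the searched letters, which says only that these letters are not in this window.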

How the data were processed

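The labels gave the siRNA, time and replicate number of every sample. The authors deposited the Feature Extraction 11.5.1.1 output of each array, whose processed signal is a linear intensity, corrected for background within the array and not normalized between arrays, and a table of log2 values that they had quantile-normalized. Per the submitters' notes they worked in R 3.4.3 with limma 3.34.8 on hg38.

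The log2 processed intensity was quantile-normalized over the 12 arrays of 24 h and, for 48 h, over the 8 si-A1 and si-SCRL arrays. Flagged spots were set aside and repeat spots averaged, which left 50599 probes at 24 h. RefSeq (GRCh38.p14) named 29033 of them (57.4%). Probes above the mean plus 3 SDs of 308 negative controls on at least 3 arrays were kept, and the brightest probe stood for its gene. limma 3.58.1 in R 4.3.3 (with statmod 1.5.0) was fitted to the 3 siRNA groups with slide as an additive term, Benjamini-Hochberg over all genes tested, with and without the methods' interquartile range of at least 0.5. The 48 h fit used 8 arrays. The scripts were tested on simulated data.

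A probe was counted as well above background as Feature Extraction flags it. Where a gene was so on no array of a group, its fold is a bound, set by the higher of its own signal and the lowest signal well above background on each array. With 4 arrays a group, precision is limited by that number and by how far a spot exceeds its background. The p-values measure the spread between replicate cultures.

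The members and gene lists were chosen with earlier results of these data known. Named genes were, among called genes with groups that do not overlap and the brighter group well above background, the 10 largest decreases and 10 largest increases and the 15 largest decreases outside the cell cycle lists, then called list members, the 2 largest changes in a list without calls, the TAPIR probe and the cell type markers. A few of these genes are not reported here. Genes for promoter printing were chosen after their values were seen. Alternatives tried were a 75th percentile scaling, normexp with an offset of 50, the authors' log2 values, the slide left out or random, the replicate number as a block, only 2 groups, other filters and probe rules, a log2 change of at least 1, and each array left out. Same-numbered si-A1 and si-SCRL arrays did not deviate together, with r from -0.04 to 0.13 over genes, so the numbers were not used as pairs. Probe positions are not used here, since the files give none.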

Additional observations from a re-analysis of the deposited data

Results flagged for a closer look

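Some arrays stood apart from the other 3 of their group in a gene's log2 intensity, with a gap to them that passed the critical value of Dixon's test. This was so in 16 of 304 groups of 4 arrays tested (5.26%), and chance flags about 1 in 20. Of the 16, 8 fell on si-SCRL replicate 3, the array with the lowest median intensity. It was the highest control for LAMP1 (11.59), KREMEN1 (7.46), LIPA (5.92), FKBP5 (8.87), PSMC2 (10.39) and SMARCA5 (7.48), and the lowest for COL3A1 (1.67) and CXCL1 (6.59). H4C15 was lowest on si-SCRL replicate 4 (13.05) and SMUG1 on si-SCRL replicate 1 (4.51). After si-A1, SLC43A2 (2.68) and PER3 (5.10) were lowest on replicate 4, SNX10 (4.73) and KDR (1.78) were lowest on replicate 1, and IGFBP3 (6.81) and ACSL3 (6.95) were highest on replicate 3. Among the called genes of this list, which were called on these same arrays, the change had the same direction on both slides. No named gene had all its arrays on opposite sides of the controls at 24 h and 48 h.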

How the results depend on the processing

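None of the 85 called genes chosen by the naming rule changed direction under 23 alternatives, 12 of which left out 1 array. Of these genes 32 were called under all 23 and 53 lost their call under at least 1, 35 of them under 5 or more. Of 66 uncalled genes 7 were called under some. The 378 calls over all detected genes became 251 with the replicate block, 141 with the si-A1 and si-SCRL arrays alone, and 199 to 329 with 1 array left out. Leaving out si-SCRL replicate 1 (247), 2 (221), or si-A1 replicate 2 (199), 3 (225) or 4 (220) moved the count by over 1.5 times. After the methods' filters, the 216 calls became 516 with normexp, 116 with the replicate block, 65 with only the si-A1 and si-SCRL arrays, 643 with a filter on signal well above background, which cut the genes tested to 4889, and 88 to 167 with 1 array left out, over 1.5 times from the reported count for every array but si-A2 replicates 1 and 2. The 64 called members of function lists became 99 with normexp, 39 with the replicate block, 20 with the 2 groups alone, and 29 to 59 with 1 array left out, over 1.5 times lower without si-SCRL replicate 1, 2 or 4 or si-A1 replicate 2, 3 or 4. The 113 calls between si-A1 and si-A2 became 312 with normexp, 30 with the replicate block, and 27 to 257 with 1 array left out, over 1.5 times from the reported count for every array but si-SCRL replicate 1 and highest without si-SCRL replicate 3. At 48 h the 308 shared calls became 250 with the replicate block and 264 to 288 with 1 array left out. Except where the construction gives fewer genes or arrays, the cause was not tested. Normexp was run on the median spot signal, since the files hold no mean signal, and was so set after the data were seen. Scaling moved the median of all genes by at most 0.07. The TAPIR-2 probe stayed between -0.51 and -0.12, with -0.18 on slide 1 and -0.61 on slide 2, and was not called under any alternative.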
